A study of Mus musculus with 4 samples.

Results

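The heat shock proteins and chaperones described here are 90 genes of the 24421 in the deposited table. They were chosen by symbol alone: Hsp90, Hsp70 and Hsp110, the small heat shock proteins with Cryab, mitochondrial Hsp60 and Hsp10, the J-domain proteins (Dnaja, Dnajb and Dnajc), the Bag proteins with Hspbp1, most subunits of the CCT complex, the adaptors Stip1 and St13, and the heat shock factors Hsf1, Hsf2 and Hsf4. The set reaches beyond the cytosol, since the symbols also cover chaperones of the endoplasmic reticulum and of mitochondria. RNA was sequenced from lymphatic endothelial cells, which form the inner lining of lymph vessels, sorted from the lungs of mice on the day of birth as cells without CD45 (a leukocyte protein) and with CD31 (an endothelial protein) and GFP. Jun-cKO animals were Prox1-CreER;Junf/f;Rosa26-mTmG, with both alleles of the transcription factor gene Jun floxed. Jun-Ctrl animals were Prox1-CreER;Junf/+;Rosa26-mTmG, so the controls also carried a floxed Jun allele, the Cre and the reporter. The Cre is driven from Prox1, which is active in lymphatic endothelium but not only there, and no dose or time of tamoxifen, which this Cre needs, is given in the sources used here. From 3 to 5 mice were pooled per group, and the cells of 3 replicates were mixed before the RNA was amplified. There were 2 libraries per group (n = 2), numbered 1 and 2 as replicates. Nothing in the sources used here says that the libraries of a group came from separate sorts, so every p-value reflects no more than the spread of these libraries, possibly a technical one.

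Jun, the targeted gene, had 524 and 475 CPM in Jun-cKO-labelled libraries, against 472 and 433 CPM in Jun-Ctrl libraries. It was not lower under the Jun-cKO label (log2 fold change 0.14, SE 0.12, edgeR adjusted p = 0.354), and a count over the whole gene does not show whether the floxed part was lost. The group is therefore called Jun-cKO-labelled. Total counts were 15558476 and 6911821 in the Jun-cKO-labelled libraries and 16037416 and 6483514 in the Jun-Ctrl libraries. The lymphatic endothelial markers summed to 22028 and 22210.0 CPM in Jun-cKO-labelled libraries, against 17497 and 16741 CPM in Jun-Ctrl libraries, with Ccl21a at 0 in every library and 11 of 12 markers tested, of which 3 were higher and 1 was lower. Markers of other lung cells were mostly lower in the Jun-cKO-labelled libraries. Lung epithelial markers, 14 of 15 lower, summed to 197 and 195 CPM in Jun-cKO-labelled libraries, against 1718 and 1819 CPM in Jun-Ctrl libraries. Immune markers, 9 of 9 tested lower and Cd3e at 0, summed to 219 and 194 CPM in Jun-cKO-labelled libraries, against 497 and 492 CPM in Jun-Ctrl libraries. Fibroblast and mesothelial markers, 5 of 9 tested lower, summed to 95.7 and 101 CPM in Jun-cKO-labelled libraries, against 289 and 299 CPM in Jun-Ctrl libraries. Blood endothelial markers, 3 of 10 tested higher and 5 lower, summed to 927 and 923 CPM in Jun-cKO-labelled libraries, against 807 and 816 CPM in Jun-Ctrl libraries. Ciliated cell markers, 2 of 4 tested higher, summed to 25 and 20.1 CPM in Jun-cKO-labelled libraries, against 18 and 16.8 CPM in Jun-Ctrl libraries. In bulk samples such as these, fewer cells of a type and less RNA per cell cannot be told apart.

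Chaperones bind proteins that are not yet folded, or have lost their fold, and release them in cycles of ATP hydrolysis or pass them on to other chaperones. Hsp70 is loaded by J-domain proteins and emptied by nucleotide exchange factors such as Hsp110 and Bag proteins, Hsp90 acts later on kinases and receptors, and the barrel-shaped CCT complex folds actin and tubulin. Heat, oxidants and tissue handling release heat shock factor Hsf1, which binds heat shock elements, repeats of GAA and TTC, and switches on the inducible members of the family.

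The promoters of the inducible Hsp70 pair, of Hspb1 and of Bag3 show the letters at issue: a heat shock element in the first 3 and an AP-1 motif, the element that Jun binds as part of the AP-1 dimer, in the last. Each line gives the 250 bases before the gene's start, 5′ to 3′ on the gene's strand, from RefSeq on GRCm38.p6, and none of these windows holds an annotated exon. Capitals mark GAANNTTC or TTCNNGAA in the first 3 lines and TGACTCA or TGAGTCA in the last.
Hspa1b, chr17:34959239-34959488, minus strand: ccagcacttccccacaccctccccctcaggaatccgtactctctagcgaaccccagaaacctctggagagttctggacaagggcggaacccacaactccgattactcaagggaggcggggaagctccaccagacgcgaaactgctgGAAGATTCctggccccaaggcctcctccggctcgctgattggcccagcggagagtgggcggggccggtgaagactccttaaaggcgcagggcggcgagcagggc
Hspa1a, chr17:34972157-34972406, minus strand: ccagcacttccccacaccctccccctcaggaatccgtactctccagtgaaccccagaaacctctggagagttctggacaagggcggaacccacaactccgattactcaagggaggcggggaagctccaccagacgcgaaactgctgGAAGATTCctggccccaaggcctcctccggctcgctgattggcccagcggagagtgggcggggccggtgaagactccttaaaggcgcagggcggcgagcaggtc
Hspb1, chr5:135887669-135887918, plus strand: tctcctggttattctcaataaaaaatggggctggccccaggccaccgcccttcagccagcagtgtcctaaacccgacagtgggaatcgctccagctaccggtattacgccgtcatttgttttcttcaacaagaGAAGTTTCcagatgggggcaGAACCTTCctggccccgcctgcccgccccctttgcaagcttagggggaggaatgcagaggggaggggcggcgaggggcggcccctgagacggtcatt
Bag3, chr7:128523333-128523582, plus strand: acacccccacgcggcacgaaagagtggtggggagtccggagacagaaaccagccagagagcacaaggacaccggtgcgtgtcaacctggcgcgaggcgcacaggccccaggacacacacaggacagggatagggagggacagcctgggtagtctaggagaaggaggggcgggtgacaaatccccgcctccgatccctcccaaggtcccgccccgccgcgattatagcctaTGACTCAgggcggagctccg
Hspa1a and Hspa1b matched at 247 of 250 bases, and at 149 of the 150 bases nearest the start, so these windows are close to a copy of each other.

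A RefSeq promoter was given for 71 of the 90 genes. The heat shock element pair, GAANNTTC or TTCNNGAA, was found in 16 of them (22.5%), against 14.5% of the 27025 genes with a RefSeq promoter. The triple, GAANNTTCNNGAA or TTCNNGAANNTTC, which contains the pair, was found in 3 (4.23%), namely Dnajb6, Hspd1 and Hspe1, against 0.514% of all genes. The Hspd1 and Hspe1 windows overlap on opposite strands and share the same triple, and in the windows with a triple all 250 bases before the start lie in annotated exons. TGACTCA or TGAGTCA was found in 2 (2.82%), Bag3 and Hspa5, against 5.16% of all genes, and the related TGACGTCA in 1 (1.41%), Dnajc27, against 1.77%. These motifs were searched on both strands, and a match describes letters and not a bound site.

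Of the 90 chaperone genes, 87 had a count in at least 1 library, and Hspb3, Dnajc22 and Dnajb8 had none. The filter on low counts passed 80. It left out these 3 and Dnajb7, Dnajb13, Dnajc6, Hsf4, Hspb2, Hspb7 and Hspb9, of which Dnajb13, known from sperm and cilia, had the most counts, 6 and 5 in the Jun-cKO-labelled libraries and 12 and 4 in Jun-Ctrl. Together the 90 genes took 1.05% and 1.09% of all counts in the Jun-cKO-labelled libraries and 1.09% and 1.11% in the Jun-Ctrl libraries, so the chaperone total was close to equal. Levels are given as CPM, the counts per library scaled by TMM to a common total. The level per kilobase of gene length was highest for Hspa8, the constitutive cytosolic Hsp70, at 537 CPM per kilobase in the Jun-cKO-labelled libraries and 744 in Jun-Ctrl. Hsp90ab1 followed in Jun-Ctrl at 370.1 CPM per kilobase in Jun-cKO-labelled and 412 in Jun-Ctrl, and then Cct2 at 367 and 344, Hspa5 at 305 and 339.9 and Bag1 at 303 and 217. The lowest of the 80 tested genes, the testis-enriched Hsp70 Hspa1l, had 0.163 CPM per kilobase in Jun-cKO-labelled and 0.832 in Jun-Ctrl. Hspa8, Hsp90ab1, Hspa5 and Cct2 made up 35.6% of the summed chaperone CPM, a share of reads and not of transcripts.

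Between the groups, 31 of the 80 tested chaperone genes passed the test (38.8%), against 41.5% of all 12656 tested genes. Passing means that edgeR's quasi-likelihood test gave a Benjamini-Hochberg adjusted p under 0.05 over all tested genes, and these p-values are called edgeR adjusted p. In the Jun-cKO-labelled libraries 18 chaperone genes rose (22.5%, against 19.0% of all genes) and 13 fell (16.2%, against 22.5%). These shares lie near those of the whole table and are no result about the chaperones as a set. Scaling by library totals in place of TMM gave 11 that rose and 14 that fell. The median log2 fold change was 0.05 over the 80 genes and 0.01 over all tested genes, and values ran from -2.53 for Cryab to 1.43 for Hspa1b. Both Jun-cKO-labelled libraries lay above both Jun-Ctrl libraries for 28 of the 80 genes (35.0%, against 35.4% of all genes) and below both for 24 (30%, against 35.9%). A change of at least 2-fold was seen in 1 gene that rose, Hspa1b, and in 5 that fell: Cryab, Hspa1l, Bag6, Dnajb5 and Hspbp1. For comparison, 2.45% of all genes rose and 10.7% fell by at least that much. Hspa1l passed the filter on low counts through its Jun-Ctrl libraries alone, so its fall carries little weight.

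**Figure D1:**
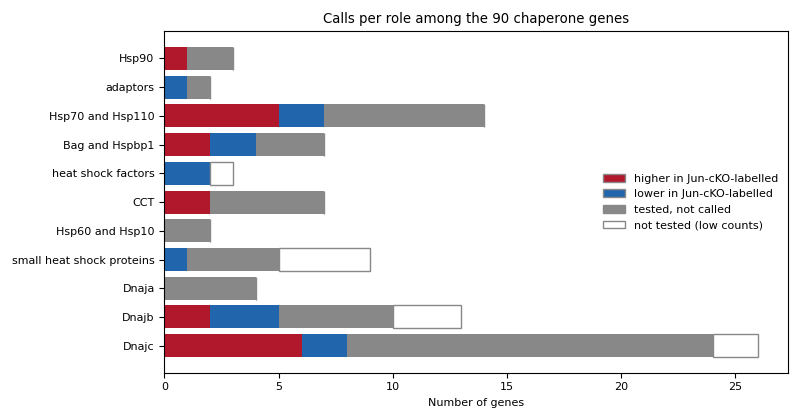
Number of genes (x axis) in each role group (y axis) of the 90 chaperone genes, stacked as higher in Jun-cKO-labelled (red), lower (blue), tested without passing (grey) and not tested (white). The Hsp70, Bag, Dnajb and Dnajc groups hold genes in both directions, the CCT group has 2 that rose and none that fell, and both tested heat shock factors fell.

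**Figure D2:**
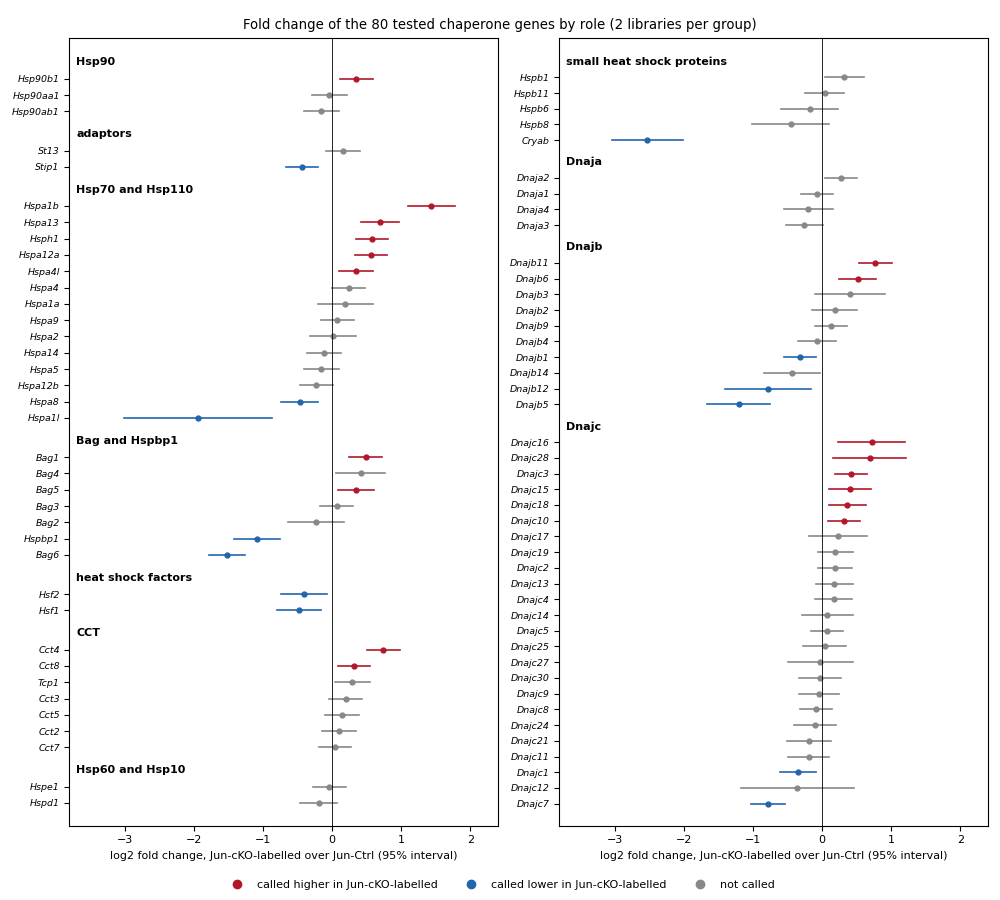
Log2 fold change (x axis) of each of the 80 tested chaperone genes, Jun-cKO-labelled over Jun-Ctrl, with its 95% interval, by role; red marks the 18 genes that rose, blue the 13 that fell and grey the 49 that did not pass the test. Hspa1b stands farthest to the right at 1.43 and Cryab farthest to the left at -2.53, and most roles hold genes on both sides of 0.

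Hspa1b, a stress-inducible Hsp70 (chr17:34956436-34959238, minus strand, GENCODE M21 on GRCm38, as for all gene positions here), rose most. It had 42.5 and 32.2 CPM in Jun-cKO-labelled libraries, against 15.3 and 11.9 CPM in Jun-Ctrl libraries. Both Jun-cKO-labelled libraries were far above both Jun-Ctrl libraries, and the mean was 37.3 ± 7.27 CPM in Jun-cKO-labelled libraries and 13.6 ± 2.41 CPM in Jun-Ctrl (SD, n = 2 each). The fitted change was 2.7-fold (log2 fold change 1.43, SE 0.17, edgeR adjusted p = 1.58e-09), and the call held in all 12 alternatives. Hspa1a, which encodes nearly the same protein, had 11.4 and 14.8 CPM in Jun-cKO-labelled libraries, against 10.7 and 11.9 CPM in Jun-Ctrl libraries. Its Jun-Ctrl libraries lay close to the lower Jun-cKO-labelled library, and the test was not passed (log2 fold change 0.19, SE 0.20, edgeR adjusted p = 0.459, 95% interval of the fold 0.868 to 1.5). The ratio of Hspa1b to Hspa1a counts was 3.72 and 2.18 in the Jun-cKO-labelled libraries and 1.43 and 1.00 in Jun-Ctrl. The groups did not overlap in this ratio, but an exact two-sided permutation test over 2 libraries each gave p = 0.333, the smallest it can give. Reads of near-identical copies can be split between the genes, so the division between these paralogs is uncertain. Under the GC correction Hspa1a also passed the test (log2 fold change 0.62, edgeR adjusted p = 0.0113).

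Early response genes that cell dissociation is known to induce were measured beside this. Of the 21 in that list, 1 was higher (4.76%, against 19.0% of all tested genes) and 9 were lower (42.9%, against 22.5%). The 21 genes summed to 5524 and 5616 CPM in Jun-cKO-labelled libraries, against 6455 and 6351 CPM in Jun-Ctrl libraries. The list's summed level was lower in both Jun-cKO-labelled libraries while Hspa1b was higher, and the part of tissue handling in the Hspa1b result was not tested.

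The other cytosolic Hsp70 genes went the other way or did not pass the test. Hspa8, which also strips clathrin from vesicles, had 1086 and 1174 CPM in Jun-cKO-labelled libraries, against 1399 and 1733 CPM in Jun-Ctrl libraries. Both Jun-cKO-labelled libraries were lower, and Hspa8 fell 1.39-fold (log2 fold change -0.47, SE 0.13, edgeR adjusted p = 0.00329). The call ended without Jun-Ctrl replicate 2 (log2 fold change -0.33, edgeR adjusted p = 0.142). Hspa1l (chr17:34972703-34979285, plus strand), whose exons overlap those of Gm10501 on the opposite strand by up to 1778 bases, had 12 and 0 counts in the Jun-cKO-labelled libraries and 36 and 12 counts in Jun-Ctrl. It fell at this very low level (log2 fold change -1.94, SE 0.53, edgeR adjusted p = 0.00296), and its call ended without Jun-Ctrl replicate 1 (edgeR adjusted p = 0.165) and by the DESeq2 Wald test (adjusted p = 0.0654). The size is uncertain. The log2 fold change was -1.37 without Jun-cKO replicate 2. No size can be given without Jun-cKO replicate 1, since the remaining library is at 0, and the filter of 50 counts left the gene out. Hspa1l passed the main filter on low counts through its Jun-Ctrl libraries alone, so a call could hardly have gone the other way.

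Of the cytosolic Hsp110 genes, whose products exchange the nucleotide of Hsp70, Hsph1 and Hspa4l rose and Hspa4 did not pass. Hsph1 had 232 and 232 CPM in Jun-cKO-labelled libraries, against 162 and 149 CPM in Jun-Ctrl libraries. The replicates of each group were close together, and Hsph1 (chr5:149614287-149636376, minus strand) rose 1.49-fold (log2 fold change 0.57, SE 0.11, edgeR adjusted p = 7.32e-05) in this fit and in all 12 alternatives. Hspa4l had 94.9 and 89.5 CPM in Jun-cKO-labelled libraries, against 69.7 and 76 CPM in Jun-Ctrl libraries, and it rose 1.27-fold (log2 fold change 0.35, SE 0.12, edgeR adjusted p = 0.0174). That call ended in 6 of 12 alternatives, each with edgeR or DESeq2 adjusted p in the range 0.0502 to 0.387: library totals, the DESeq2 Wald test, the GC correction (0.387), and without Jun-cKO replicate 1 (0.0798), Jun-Ctrl replicate 1 (0.217) or Jun-Ctrl replicate 2 (0.0662). Hspa4, the third, had 355 and 402 CPM in Jun-cKO-labelled and 326 and 314 CPM in Jun-Ctrl, and it did not pass (log2 fold change 0.24, SE 0.12, edgeR adjusted p = 0.0957), although its groups did not overlap.

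Of the more distant Hsp70 relatives, Hspa12a and Hspa13 rose. Hspa12a (chr19:58795750-58943654, minus strand) had 224 and 203 CPM in Jun-cKO-labelled libraries, against 149.9 and 140.3 CPM in Jun-Ctrl libraries, and it rose 1.47-fold (log2 fold change 0.56, SE 0.12, edgeR adjusted p = 0.000106). Hspa13 (chr16:75745431-75767104, minus strand), an ATPase of the endoplasmic reticulum, had 50.1 and 52.7 CPM in Jun-cKO-labelled libraries, against 32.6 and 30.9 CPM in Jun-Ctrl libraries, and it rose 1.61-fold (log2 fold change 0.69, SE 0.14, edgeR adjusted p = 6.85e-05). In both genes the groups stood well apart, and both calls held in all 12 alternatives. Hspa12b, the paralog of Hspa12a, had 93.7 and 106 CPM in Jun-cKO-labelled libraries, against 109.6 and 124 CPM in Jun-Ctrl libraries. It was lower in both Jun-cKO-labelled libraries and did not pass (log2 fold change -0.23, SE 0.12, edgeR adjusted p = 0.121). Under the GC correction the sign of Hspa12b changed (log2 fold change 0.18, edgeR adjusted p = 0.212).

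**Figure D3:**
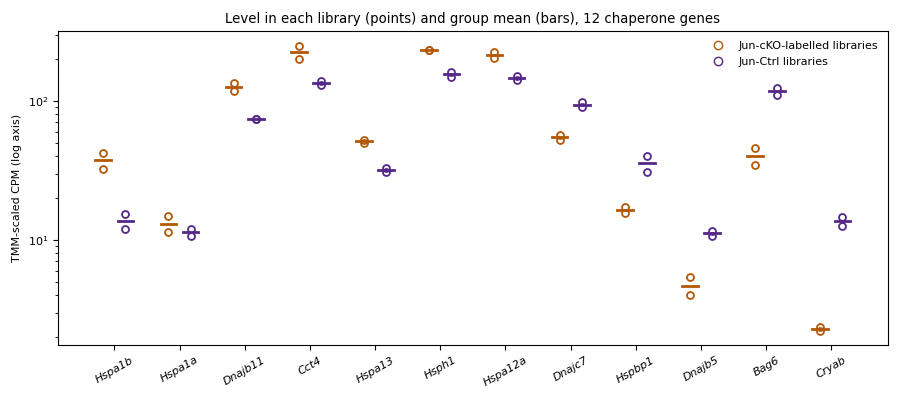
CPM on a log axis in each library for the 11 chaperone genes whose changes held in all 12 alternatives and for Hspa1a, with Jun-cKO-labelled libraries left of Jun-Ctrl; points are single libraries and bars are group means. Hspa1b lies at 42.5 and 32.2 CPM in Jun-cKO-labelled against 15.3 and 11.9 in Jun-Ctrl, and Cryab at 2.36 and 2.21 against 12.5 and 14.7.

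The cytosolic Hsp90 genes did not pass the test. Hsp90ab1, the constitutive form, had 956 and 899.5 CPM in Jun-cKO-labelled libraries, against 1027 and 1039 CPM in Jun-Ctrl libraries. Its Jun-cKO-labelled libraries lay below, by less than the test needed (log2 fold change -0.15, SE 0.12, edgeR adjusted p = 0.329, 95% interval of the fold 0.756 to 1.07). Hsp90aa1, the inducible form, had 109.6 and 152 CPM in Jun-cKO-labelled libraries, against 132 and 136 CPM in Jun-Ctrl libraries, and its groups overlapped (log2 fold change -0.04, SE 0.12, edgeR adjusted p = 0.821). Stip1, which holds Hsp70 and Hsp90 together while a client is passed on, had 97.1 and 93.6 CPM in Jun-cKO-labelled libraries, against 123 and 136 CPM in Jun-Ctrl libraries. Both Jun-cKO-labelled libraries were lower and Stip1 fell 1.35-fold (log2 fold change -0.44, SE 0.12, edgeR adjusted p = 0.00225), with an edgeR adjusted p of 0.0507 without Jun-Ctrl replicate 2. St13, the other adaptor, which stabilizes Hsp70 in its ADP-bound state, had 69.5 and 79.9 CPM in Jun-cKO-labelled libraries, against 68.9 and 64.4 CPM in Jun-Ctrl libraries, and it did not pass (log2 fold change 0.15, SE 0.12, edgeR adjusted p = 0.333).

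The Bag proteins and Hspbp1, which release clients from Hsp70, held both directions. Of 7 tested, 2 rose (28.6%, against 19.0% of all tested genes) and 2 fell (28.6%, against 22.5%). Bag6 (chr17:35135178-35147322, plus strand), which guides new membrane proteins and shields misplaced ones, had 45.6 and 34.7 CPM in Jun-cKO-labelled libraries, against 110.3 and 125 CPM in Jun-Ctrl libraries. Both Jun-cKO-labelled libraries were far below both Jun-Ctrl libraries, and Bag6 fell 2.87-fold (log2 fold change -1.52, SE 0.13, edgeR adjusted p = 1.41e-13). The mean was 40.2 ± 7.72 CPM in Jun-cKO-labelled libraries and 117 ± 10.1 CPM in Jun-Ctrl (SD, n = 2 each). Hspbp1 (chr7:4660521-4685068, minus strand) had 17.2 and 15.5 CPM in Jun-cKO-labelled libraries, against 30.8 and 40.4 CPM in Jun-Ctrl libraries, and it fell 2.13-fold (log2 fold change -1.09, SE 0.16, edgeR adjusted p = 5.77e-07). Both falls held in all 12 alternatives. Bag1, the exchange factor with the highest level per kilobase of the Bag genes, had 403 and 413 CPM in Jun-cKO-labelled libraries, against 261 and 325 CPM in Jun-Ctrl libraries. It was higher in both Jun-cKO-labelled libraries and rose 1.4-fold (log2 fold change 0.48, SE 0.12, edgeR adjusted p = 0.00108), although without Jun-Ctrl replicate 1 the edgeR adjusted p was 0.138. Bag5 had 59.9 and 68.5 CPM in Jun-cKO-labelled and 48.3 and 52.9 CPM in Jun-Ctrl, and it rose 1.27-fold (log2 fold change 0.34, SE 0.13, edgeR adjusted p = 0.0287). Its call ended in 6 of 12 alternatives, among them without Jun-cKO replicate 2 (edgeR adjusted p = 0.154), Jun-Ctrl replicate 1 (0.278) or Jun-Ctrl replicate 2 (0.0849).

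Bag3, a heat-inducible partner of small heat shock proteins in selective autophagy, whose promoter above holds the AP-1 letters, had 175 and 155 CPM in Jun-cKO-labelled libraries, against 171 and 144 CPM in Jun-Ctrl libraries. The groups overlapped (log2 fold change 0.07, SE 0.12, edgeR adjusted p = 0.684, 95% interval of the fold 0.889 to 1.23). Bag3 passed under the GC correction alone (log2 fold change 0.36, edgeR adjusted p = 0.0103). Hspa5, the other gene with those letters and the Hsp70 of the endoplasmic reticulum, had 823 and 774 CPM in Jun-cKO-labelled libraries, against 906 and 872 CPM in Jun-Ctrl libraries, a difference that did not pass (log2 fold change -0.15, SE 0.12, edgeR adjusted p = 0.324). Bag2 (log2 fold change -0.23, edgeR adjusted p = 0.377) and Bag4 (log2 fold change 0.42, edgeR adjusted p = 0.0527) did not pass either, although Bag4 passed by limma-voom (adjusted p = 0.0476).

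Both tested heat shock factors fell, against 22.5% of all tested genes. Hsf1, the main heat-responsive factor, had 29.1 and 20.7 CPM in Jun-cKO-labelled libraries, against 33.7 and 37.8 CPM in Jun-Ctrl libraries, and Hsf2, its relative, had 18.5 and 19 CPM in Jun-cKO-labelled libraries, against 27.6 and 21.4 CPM in Jun-Ctrl libraries. For both genes the Jun-cKO-labelled libraries lay below the Jun-Ctrl libraries, by 1.4-fold for Hsf1 (log2 fold change -0.48, SE 0.16, edgeR adjusted p = 0.0113) and 1.33-fold for Hsf2 (log2 fold change -0.41, SE 0.17, edgeR adjusted p = 0.0407). Without Jun-cKO replicate 2 the edgeR adjusted p was 0.192 for Hsf1 and 0.0546 for Hsf2, without the first Jun-Ctrl library 0.0547 and 0.503, without Jun-Ctrl replicate 2 0.0936 for Hsf1, and without Jun-cKO replicate 1 0.109 for Hsf2. The DESeq2 Wald test passed neither, with adjusted p = 0.0556 for Hsf1 and 0.163 for Hsf2. Under the GC correction Hsf1 no longer passed (log2 fold change -0.34, edgeR adjusted p = 0.0684), while Hsf2 passed with a log2 fold change of -0.67 (edgeR adjusted p = 0.000913). Hsf4 had 1 count in all, in Jun-Ctrl replicate 2. RNA level says nothing of Hsf1 activity, which is set mostly on the protein. Of 24 genes known to be heat-induced through Hsf1, 18 of them chaperones of the set, 5 rose (Hspa1b, Hsph1, Hspa4l, Serpinh1 and Chordc1) and 5 fell (Cryab, Stip1, Hspa8, Dnajb1 and Ahsa1), with a median log2 fold change of -0.04. That is 20.8% each way, near the 19.0% and 22.5% of all tested genes.

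The CCT ring had a positive fold change in all 7 subunits matched by symbol, beside 6370 of the 12656 tested genes. Of the 7, 2 rose (28.6%, against 19.0% of all tested genes). Their median GC content was 45.1%, against 49.7% of all tested genes. Under the GC correction 1 of the 7 passed, Cct4, with a log2 fold change of 0.61. The others then ran from -0.09 for Cct7 to 0.15 for Cct8. The part of base composition here was not tested further. Cct4 (chr11:22990519-23003780, plus strand) had 200.3 and 249.7 CPM in Jun-cKO-labelled libraries, against 130.0 and 139.5 CPM in Jun-Ctrl libraries. Its Jun-cKO-labelled libraries lay well above, and it rose 1.67-fold (log2 fold change 0.74, SE 0.12, edgeR adjusted p = 2.22e-06) in all 12 alternatives as well. Cct8 had 271 and 303 CPM in Jun-cKO-labelled libraries, against 231 and 228 CPM in Jun-Ctrl libraries, and it rose 1.25-fold (log2 fold change 0.32, SE 0.12, edgeR adjusted p = 0.0236), a call that ended in 5 of 12 alternatives, among them the GC correction (edgeR adjusted p = 0.244) and without Jun-cKO replicate 2 (0.13), Jun-Ctrl replicate 1 (0.149) or Jun-Ctrl replicate 2 (0.178). The exons of Cct8 overlap those of Usp16 on the opposite strand by up to 192 bases, and reads there cannot be told apart without strand. The other subunits, which stand in the same ring in equal number, had smaller changes: Tcp1 (log2 fold change 0.29, edgeR adjusted p = 0.0545), Cct3 (log2 fold change 0.20, edgeR adjusted p = 0.178), Cct5 (log2 fold change 0.14, edgeR adjusted p = 0.376), Cct2 (log2 fold change 0.10, edgeR adjusted p = 0.549) and Cct7 (log2 fold change 0.04, edgeR adjusted p = 0.802) did not pass. Without Jun-cKO replicate 1, 5 of the 7 passed, adding Tcp1 (edgeR adjusted p = 0.000912), Cct3 (0.0329) and Cct5 (0.042), and 1 passed when any other single library was left out. The median of the 7 was 0.20, and 6 of 7 were positive with library totals, with the GC correction, without Jun-cKO replicate 2 and without Jun-Ctrl replicate 1. Summed over the 7, the level was 2216 and 2477 CPM in Jun-cKO-labelled libraries, against 2040.2 and 2059 CPM in Jun-Ctrl libraries. Cct6a, a ring subunit whose symbol the pattern does not match and which was looked up afterwards, had 276 and 288 CPM in Jun-cKO-labelled and 237 and 221 CPM in Jun-Ctrl (log2 fold change 0.30, SE 0.11, edgeR adjusted p = 0.0331). Of 11 prefoldin and CCT cofactor genes, 1 rose and 1 fell (9.09% each, against 19.0% and 22.5% of all tested genes). Their median was 0.16. Pdcl3 rose (log2 fold change 0.34, edgeR adjusted p = 0.0168). Pfdn1, a subunit of the prefoldin complex that hands actin and tubulin to CCT, fell (log2 fold change -0.92, edgeR adjusted p = 1.64e-07).

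Cryab (chr9:50751325-50756636, plus strand), a small heat shock protein that is abundant in muscle and lens, fell most of all chaperones. It had 2.36 and 2.21 CPM in Jun-cKO-labelled libraries, against 12.5 and 14.7 CPM in Jun-Ctrl libraries, or 36 and 15 counts in the Jun-cKO-labelled libraries and 206 and 96 in Jun-Ctrl. The groups were far apart, and Cryab fell 5.78-fold (log2 fold change -2.53, SE 0.26, edgeR adjusted p = 2.57e-11) here and in all 12 alternatives. Its exons overlap those of Hspb2 on the opposite strand, and Hspb2 itself had 2 counts in each Jun-cKO-labelled library and 2 and 1 in Jun-Ctrl. Hspb7, a small heat shock protein of heart and muscle, had no count in the Jun-cKO-labelled libraries and 10 and 2 counts in Jun-Ctrl. With 3 counts over both Jun-cKO-labelled libraries as the floor, the pooled level was 3.99-fold lower or more. That size rests mostly on Jun-Ctrl replicate 1 and leaves out the error of the Jun-Ctrl counts. Hspb7 was named for having no count in either Jun-cKO-labelled library, and the share of all genes like this was not counted. Of the smooth and heart muscle markers, 6 of 10 tested fell, and the list summed to 31.1 and 29.1 CPM in Jun-cKO-labelled libraries, against 105 and 102 CPM in Jun-Ctrl libraries. Acta2, the smooth muscle actin, had 8.72 and 11.4 CPM in Jun-cKO-labelled and 51.4 and 49.9 CPM in Jun-Ctrl, and Des was at 0 in both Jun-cKO-labelled libraries. The other 4 did not pass: the heart markers Myl7 (log2 fold change 0.93, edgeR adjusted p = 0.0692), Actc1 (log2 fold change 0.56, edgeR adjusted p = 0.25) and Tnni3 (log2 fold change 0.07, edgeR adjusted p = 0.833) had positive values, and Cnn1 a negative one (log2 fold change -1.28, edgeR adjusted p = 0.0729). Lung epithelial markers, given above, were lower as well, and the part of these other cells in the Cryab and Hspb7 results was not tested.

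The remaining small heat shock proteins did not pass the test. Hspb1, an inducible actin-associated chaperone whose promoter above carries heat shock element pairs, had 66 and 89.6 CPM in Jun-cKO-labelled libraries, against 52.2 and 73.1 CPM in Jun-Ctrl libraries, and its replicates differed as much as its groups (log2 fold change 0.32, SE 0.14, edgeR adjusted p = 0.061). It passed in 6 of 12 alternatives, with a log2 fold change of 0.82 under the GC correction (edgeR adjusted p = 5.39e-05). Hspb11 is in this group by symbol alone, since its protein is a subunit of intraflagellar transport. It had 37.2 and 38.1 CPM in Jun-cKO-labelled and 35.7 and 37.9 CPM in Jun-Ctrl (log2 fold change 0.04, SE 0.14, edgeR adjusted p = 0.864). Hspb6 had a log2 fold change of -0.18 and Hspb8 of -0.46, and Hspb2, Hspb3, Hspb7 and Hspb9 were too low to be tested.

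J-domain proteins stimulate the ATPase of Hsp70 and bring it clients, and the set holds 43. Of 38 tested, 8 rose and 5 fell, beside 19.0% and 22.5% of all tested genes. In the Dnaja class, the closest to bacterial DnaJ, none of 4 passed. Dnaja1 had 292 and 273 CPM in Jun-cKO-labelled libraries, against 320.1 and 274 CPM in Jun-Ctrl libraries (log2 fold change -0.07, edgeR adjusted p = 0.649), and Dnaja2 had 154 and 160.2 CPM in Jun-cKO-labelled and 135 and 125 CPM in Jun-Ctrl (log2 fold change 0.27, edgeR adjusted p = 0.0531). At an unadjusted p under 0.05 in edgeR 1 of the 4 is counted, Dnaja2, the DESeq2 Wald test passed 0 of them, and under the GC correction Dnaja1 passed (log2 fold change -0.27, edgeR adjusted p = 0.047). Exons of Dnaja1 overlap those of Smu1 on the opposite strand.

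Among the Dnajb genes, Dnajb11 and Dnajb6 rose and Dnajb1, Dnajb5 and Dnajb12 fell, of 10 tested. Of all tested genes 19.0% rose and 22.5% fell, so these counts are no result about the class. Dnajb1, the classical Hsp40 and main cytosolic partner of inducible Hsp70, had 104 and 110.3 CPM in Jun-cKO-labelled libraries, against 130.2 and 137 CPM in Jun-Ctrl libraries. Both Jun-cKO-labelled libraries were lower, and it fell 1.25-fold (log2 fold change -0.32, SE 0.12, edgeR adjusted p = 0.0224), opposite in sign to Hspa1b. Its call ended under the GC correction (edgeR adjusted p = 0.102) and without Jun-cKO replicate 1 (0.102), Jun-Ctrl replicate 1 (0.0774) or Jun-Ctrl replicate 2 (0.135). Dnajb5 (chr4:42949814-42959425, plus strand), a cytosolic relative of Dnajb1, had 5.37 and 3.99 CPM in Jun-cKO-labelled libraries, against 11.6 and 10.7 CPM in Jun-Ctrl libraries, and it fell 2.31-fold (log2 fold change -1.21, SE 0.23, edgeR adjusted p = 3.41e-05) in all alternatives. Dnajb6, which keeps aggregation-prone proteins soluble, had 52.4 and 52.4 CPM in Jun-cKO-labelled libraries, against 39.1 and 33.7 CPM in Jun-Ctrl libraries. Its groups stood apart and it rose 1.43-fold (log2 fold change 0.51, SE 0.14, edgeR adjusted p = 0.00194), with an edgeR adjusted p of 0.0746 without Jun-Ctrl replicate 2. Dnajb12, anchored in the endoplasmic reticulum membrane, was low, with 2.75 and 3.69 CPM in Jun-cKO-labelled and 4.18 and 7.19 CPM in Jun-Ctrl (log2 fold change -0.78, SE 0.31, edgeR adjusted p = 0.0374), and its call ended in 5 of the 11 alternatives that tested it, among them without Jun-cKO replicate 1 (edgeR adjusted p = 0.287) or Jun-Ctrl replicate 2 (0.397). Dnajb9, a further partner of Hspa5 in the endoplasmic reticulum, had 107 and 110.4 CPM in Jun-cKO-labelled and 101 and 98.1 CPM in Jun-Ctrl (log2 fold change 0.13, edgeR adjusted p = 0.405).

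Dnajc7 (chr11:100582818-100620168, minus strand), which binds both Hsp70 and Hsp90, had 52.5 and 56.7 CPM in Jun-cKO-labelled libraries, against 89.9 and 97.9 CPM in Jun-Ctrl libraries. The groups were well separated, and it fell 1.72-fold (log2 fold change -0.78, SE 0.12, edgeR adjusted p = 1.18e-06) in all 12 alternatives. Its exons overlap those of Cnp on the opposite strand by up to 154 bases, and Cnp itself had 284 and 112 counts in the Jun-cKO-labelled libraries and 303 and 146 in Jun-Ctrl. They also overlap those of Nkiras2 on the opposite strand by up to 287 bases. Nkiras2 had 6 and 0 counts in the Jun-cKO-labelled libraries and 11 and 3 in Jun-Ctrl. Of the 24 tested Dnajc genes, 6 rose (25.0%, against 19.0% of all tested genes) and 2 fell (8.33%, against 22.5%), the second being Dnajc1. Dnajc5, the cysteine string protein of secretory vesicles, had 264 and 233 CPM in Jun-cKO-labelled and 246 and 228 CPM in Jun-Ctrl (log2 fold change 0.07, edgeR adjusted p = 0.681), and Dnajc8 had 128 and 146 CPM in Jun-cKO-labelled and 137 and 153 CPM in Jun-Ctrl (log2 fold change -0.09, edgeR adjusted p = 0.579). Dnajc18 had 52.6 and 47.4 CPM in Jun-cKO-labelled and 37.5 and 40.8 CPM in Jun-Ctrl. It rose (log2 fold change 0.36, SE 0.13, edgeR adjusted p = 0.0263), with an adjusted p of 0.0578 to 0.244 in the 6 alternatives that ended its call. Dnajc16, at 7.86 and 10.8 CPM in Jun-cKO-labelled and 5.03 and 6.27 CPM in Jun-Ctrl (log2 fold change 0.72, SE 0.24, edgeR adjusted p = 0.0135), and Dnajc28, at 6.36 and 7.23 CPM in Jun-cKO-labelled and 3.58 and 5.2 CPM in Jun-Ctrl (log2 fold change 0.69, SE 0.27, edgeR adjusted p = 0.0335), rose at low levels. Their calls ended in 3 and 5 alternatives. Without Jun-Ctrl replicate 1 the edgeR adjusted p was 0.255 for Dnajc16, 0.468 for Dnajc28 and 0.244 for Dnajc18. Without Jun-cKO replicate 2 it was 0.0945 for Dnajc16 and 0.0731 for Dnajc28, and for Dnajc18 it was 0.169 without Jun-cKO replicate 1 and 0.0818 without Jun-Ctrl replicate 2.

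Of 9 members listed as working in the endoplasmic reticulum, among them Hspa13, 5 rose (55.6%, against 19.0% of all tested genes) and 1 fell (11.1%, against 22.5%). A positive fold change was seen in 7 of the 9, and the median was 0.32. Under the GC correction 2 rose and 1 fell, with a median of 0.16. The 9 were listed by hand and do not cover every member of this compartment. Dnajb12, for example, which fell and is anchored in its membrane, is not among them. Dnajb11 (chr16:22857845-22879634, plus strand), a soluble partner of Hspa5, had 119 and 134 CPM in Jun-cKO-labelled libraries, against 73.6 and 74.4 CPM in Jun-Ctrl libraries. The Jun-cKO-labelled libraries were far above, and it rose 1.7-fold (log2 fold change 0.77, SE 0.12, edgeR adjusted p = 8.57e-07) in all 12 alternatives. Hsp90b1, the Hsp90 of this compartment, had 367 and 396 CPM in Jun-cKO-labelled libraries, against 291 and 308 CPM in Jun-Ctrl libraries, and it rose 1.27-fold (log2 fold change 0.35, SE 0.12, edgeR adjusted p = 0.0133). Dnajc3, which also inhibits the kinase that slows translation under stress, had 141 and 147 CPM in Jun-cKO-labelled libraries, against 110.4 and 106 CPM in Jun-Ctrl libraries, and it rose 1.33-fold (log2 fold change 0.41, SE 0.12, edgeR adjusted p = 0.00336). Dnajc10, a disulphide reductase, had 106 and 118 CPM in Jun-cKO-labelled and 93.7 and 85.1 CPM in Jun-Ctrl (log2 fold change 0.32, SE 0.12, edgeR adjusted p = 0.0268), and Dnajc1 had 47.4 and 43.4 CPM in Jun-cKO-labelled and 58.6 and 57.5 CPM in Jun-Ctrl (log2 fold change -0.35, SE 0.13, edgeR adjusted p = 0.0264). Hspa5, the hub of these partners, did not pass, as given above.

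Several of these calls depended on the processing. With the GC correction Hsp90b1 (edgeR adjusted p = 0.225), Dnajc3 (0.052) and Dnajc10 (0.157) no longer passed. Without Jun-Ctrl replicate 2 the edgeR adjusted p was 0.0792 for Hsp90b1, 0.0793 for Dnajc3, 0.281 for Dnajc10 and 0.0771 for Dnajc1. Without Jun-Ctrl replicate 1 it was 0.171 for Hsp90b1, 0.0854 for Dnajc10 and 0.136 for Dnajc1, and without Jun-cKO replicate 2 0.0539, 0.12 and 0.122 in the same order. Among other chaperones of the endoplasmic reticulum, calls went both ways. Of 14, 3 rose (21.4%, against 19.0% of all tested genes) and 2 fell (14.3%, against 22.5%), with a median of 0.14. A positive fold change was seen in 11 of the 14, beside 6370 of the 12656 tested genes. Manf, a secreted stress-induced protein, had 174 and 160.3 CPM in Jun-cKO-labelled and 115 and 89.2 CPM in Jun-Ctrl (log2 fold change 0.70, SE 0.12, edgeR adjusted p = 7.32e-06), and Serpinh1, the collagen chaperone, had 129.5 and 121 CPM in Jun-cKO-labelled and 102 and 96.1 CPM in Jun-Ctrl (log2 fold change 0.34, edgeR adjusted p = 0.0176). Calr, calreticulin, had 180.0 and 143 CPM in Jun-cKO-labelled libraries, against 286 and 279 CPM in Jun-Ctrl libraries, and it fell (log2 fold change -0.80, SE 0.12, edgeR adjusted p = 4.46e-07), as did Hyou1, the Hsp110 of this compartment, at 3.54 and 2.07 CPM in Jun-cKO-labelled and 6.0 and 7.65 CPM in Jun-Ctrl (log2 fold change -1.14, edgeR adjusted p = 0.00116).

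Of the chaperones that work in mitochondria, Hspd1 and Hspe1 form a cage for folding. Hspd1, the Hsp60 ring, had 60.7 and 84.3 CPM in Jun-cKO-labelled libraries, against 78.3 and 86.6 CPM in Jun-Ctrl libraries (log2 fold change -0.20, SE 0.13, edgeR adjusted p = 0.229). Hspe1, its Hsp10 lid, had 109 and 107 CPM in Jun-cKO-labelled libraries, against 108 and 115 CPM in Jun-Ctrl libraries (log2 fold change -0.04, SE 0.12, edgeR adjusted p = 0.819). Neither passed, and their groups overlapped. At an unadjusted p under 0.05 in edgeR, and by the DESeq2 Wald test, 0 of these 2 genes are counted, although Hspd1 passed without Jun-cKO replicate 2 (edgeR adjusted p = 0.0101). Exons of these neighbours overlap on opposite strands by up to 112 bases. Hspa9, the mitochondrial Hsp70, had 437 and 451 CPM in Jun-cKO-labelled libraries, against 444 and 398 CPM in Jun-Ctrl libraries (log2 fold change 0.07, edgeR adjusted p = 0.644), also overlapping. Dnajc15, of the protein import motor, had 35.3 and 47.4 CPM in Jun-cKO-labelled and 28.9 and 33.4 CPM in Jun-Ctrl, and it rose 1.32-fold (log2 fold change 0.40, SE 0.15, edgeR adjusted p = 0.0269), with a call that ended in 7 of 12 alternatives, among them without Jun-cKO replicate 2 (edgeR adjusted p = 0.343), Jun-Ctrl replicate 1 (0.337) or Jun-Ctrl replicate 2 (0.0573). Of 12 other mitochondrial chaperones and proteases, 2 rose and 2 fell (16.7% each, against 19.0% and 22.5% of all tested genes). Their median was 0.11. Grpel2 (log2 fold change 0.45, edgeR adjusted p = 0.036) and Hscb (log2 fold change 0.41, edgeR adjusted p = 0.0423) rose, and Spg7 (log2 fold change -0.60, edgeR adjusted p = 0.000347) and Lonp1 (log2 fold change -0.42, edgeR adjusted p = 0.00443) fell.

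Genes listed as Hsp70 and Hsp90 co-chaperones outside the symbol pattern also held both directions. Of 27 tested, 7 rose (25.9%, against 19.0% of all tested genes) and 6 fell (22.2%, against 22.5%). Their median log2 fold change was -0.02. Cdc37, which brings kinases to Hsp90, had 32 and 25.7 CPM in Jun-cKO-labelled libraries, against 59.8 and 64.4 CPM in Jun-Ctrl libraries. Both Jun-cKO-labelled libraries were far lower, and Cdc37 fell 2.12-fold (log2 fold change -1.08, SE 0.14, edgeR adjusted p = 1.5e-08). Fkbp8, a membrane-anchored immunophilin, had 50 and 56 CPM in Jun-cKO-labelled and 83.3 and 115 CPM in Jun-Ctrl, and it fell (log2 fold change -0.90, SE 0.13, edgeR adjusted p = 3.64e-07). Ptges3, the Hsp90 co-chaperone p23, had 83.8 and 91.1 CPM in Jun-cKO-labelled and 53.4 and 59.5 CPM in Jun-Ctrl, and it rose (log2 fold change 0.64, SE 0.12, edgeR adjusted p = 4.73e-05). Flcn, which the list counts although its protein is a client of Hsp90 and not a co-chaperone, also rose. It had 60.7 and 69.2 CPM in Jun-cKO-labelled and 37.3 and 41.9 CPM in Jun-Ctrl (log2 fold change 0.72, edgeR adjusted p = 2.22e-05).

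Base composition went along with the changes. Across 12188 tested genes with a GC content, 96.3% of those tested, log2 fold change and GC content of the longest transcript had a Spearman rho of -0.338, and over the 80 chaperone genes rho was -0.213. These are descriptions across genes of the same 4 libraries, and genes are not independent replicates. The tested chaperone genes had a median GC content of 47.4%, against 49.7% of all tested genes. Bag6 and Hspbp1, which fell, have a GC content of 59.9% and 59.9%, and Cct4, which rose, of 45.1%. Hspa1b rose with a GC content of 58.1%. A fit with each library's GC trend as an offset gave 16 chaperone genes that rose and 12 that fell. Of the 31 calls, 20 were shared with that fit, and 8 genes passed there and not with the counts as deposited: Bag3, Dnaja1, Dnajb2, Dnajb3, Dnajb14, Dnajc4, Hspa1a and Hspb1. In it Hspa1b had a log2 fold change of 1.82, Cct4 of 0.61, Bag6 of -1.05, Hspbp1 of -0.62 and Cryab of -2.33. The part of base composition in single results was not tested further.

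**Figure D4:**
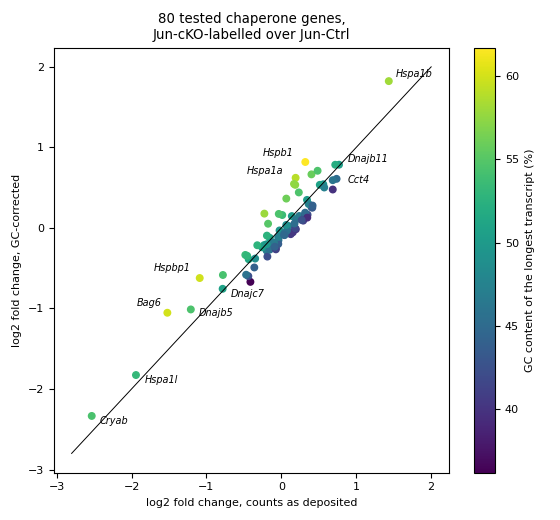
Log2 fold change of the 80 tested chaperone genes, Jun-cKO-labelled over Jun-Ctrl, with counts as deposited (x axis) against the GC-corrected fit (y axis), coloured by the GC content of the longest transcript, with the line of equal values. Genes of high GC content such as Hspb1, Hspbp1 and Bag6 lie above the line and Cct4, of lower GC content, lies below it, while Hspa1b and Cryab stay at the extremes of both axes.

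In all, 11 of the 31 calls held in every one of the 12 alternatives. Of these, Hspa1b, Dnajb11, Cct4, Hspa13, Hsph1 and Hspa12a rose, and Cryab, Bag6, Dnajb5, Hspbp1 and Dnajc7 fell. They come from 6 of the role groups.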

How the data were processed

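The authors deposited raw read counts per gene, with 1 column per library, and gene lengths in bases. The submitters' processing notes list STAR 2.7.2a, featureCounts 1.6.4, edgeR 3.28.1 and mm10 and give no roles for them. Annotation and strand setting of the counting are not stated, so reads of overlapping genes cannot be told apart, which touches 30 of the 80 tested chaperone genes. Columns were matched to libraries by title.

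The edgeR 4.0.16 quasi-likelihood test (R 4.3.3, TMM, filterByExpr, Benjamini-Hochberg over all tested genes) compared Jun-cKO minus Jun-Ctrl in all 4 libraries without a block, and was checked on simulated data. CPM values are TMM-scaled. Floors cover counting error only, because reads of amplified RNA that carry no molecular identifiers are not independent. Transcript GC content and positions come from GENCODE M21. For the GC correction, deviations of a library on the log2 scale were smoothed against GC content by loess with span 0.5, using genes over 2 in log2 CPM, and the curve entered as an offset. Other alternatives were DESeq2 size factors, library totals, the DESeq2 1.42.0 Wald test, limma-voom (limma 3.58.1), no low-count filter, at least 50 counts in 2 libraries, a replicate block, and leaving out each library.

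The members, the gene lists and the rule for named genes were chosen with earlier results of these data known. Named are all members of the small role groups, called members of the others (at most 8 per group) with the 2 of highest CPM, and at most 4 called genes per other list. Hspa1a, Hspa4, Hspa9, Hspa12b, Cct6a, Myl7, Actc1, Tnni3 and Cnn1 were named after their values were seen.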

Additional observations from a re-analysis of the deposited data

How the results depend on the processing

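With 2 libraries per group, 11 of the 31 chaperone calls held in all 12 alternatives and 20 ended in at least 1. Of these, 15 ended without Jun-Ctrl replicate 1, 15 without Jun-Ctrl replicate 2, 5 without Jun-cKO replicate 1 and 10 without Jun-cKO replicate 2. Of the 49 genes that did not pass, 14 passed in at least 1 alternative and 24 changed sign in at least 1. No called gene changed sign. The 18 chaperone genes that rose became 11 with library totals and 11 with the DESeq2 Wald test, and 8 to 21 with 1 library left out. The 13 that fell became 8 with the DESeq2 Wald test and 7 to 11 with 1 library left out. Over all genes, the 2408 that rose became 1564 with the DESeq2 Wald test and 1177 to 2214 with 1 library left out, and the 2843 that fell became 1815 to 2656. The median log2 fold change of the tested chaperone genes, 0.05, became -0.0017 with library totals, 0.028 with the filter of 50 counts in 2 libraries, -0.0099 with the GC correction and -0.0074 to 0.070 with 1 library left out. The cause of these shifts was not tested.

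Both libraries numbered 1 had higher total counts (15558476 and 16037416) than both numbered 2 (6911821 and 6483514), so the number goes with depth. Deviations of same-numbered libraries correlated at 0.073 over all tested genes. A correlation over all genes cannot settle whether the replicate numbers pair the samples. With the replicate block, 20 chaperone genes rose and 13 fell, with all 31 calls shared and 2 added, and 2521 and 2905 of all genes rose and fell. Depth limits the low members: 10 of the 90 genes were not tested, and 3 counts are worth 0.193 and 0.434 CPM in Jun-cKO-labelled libraries and 0.187 and 0.463 CPM in Jun-Ctrl, unscaled. The other 2 normalizations and tests, DESeq2 size factors and limma-voom, kept every count above within 1.5 times of its value.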
